A study of Homo sapiens with 4 samples.

Results

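The human nuclear genome holds many inserted copies of the mitochondrial genes, and the counts assigned to them were followed in H1299 cells exposed to mercury chloride. H1299 is a human non-small cell lung carcinoma line established from a tumour. The study treated wild type H1299 cells with 5 μM HgCl2 for 48 h and used cells given the solvent, 0.6% EtOH, as the control. The sample titles and the study's methods set the control apart, while the treatment text of the labels names HgCl2 for all 4 samples. PolyA RNA was sequenced, and each group has 2 columns of counts per transcript. The copies were taken as genes off chromosome MT whose symbol names a mitochondrial gene followed by P and a number (MTND, MTCO, MTATP and MTCYB copies), with a count above 0 in any column. The annotation lists 404 such copies, and 45 of them had any count. The other 359 were at 0 in all 4 columns. Copies of the ribosomal RNA genes under the names MTRNR and MTRNR2L were not analysed here.

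These sequences, called nuclear mitochondrial DNA segments, arose when pieces of mitochondrial DNA were inserted into chromosomes. Most no longer hold an intact reading frame, and the nucleus and the mitochondrion read some codons differently, so the copies are annotated as pseudogenes. The parents they resemble encode subunits of the respiratory chain and ATP synthase and are transcribed inside the mitochondrion as long precursors. A recent insertion is nearly identical to its parent, so a short read from one can match the other. How reads that match several places were counted is not given in the sources used here. The counts of a copy that is nearly identical to its parent are therefore uncertain, and transcripts of the copy and of the parent cannot be told apart in the bases they share.

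Total counts per column lay between 4720978 and 5053120. The columns of a group differed by less than sampling noise: the variance of their difference was 0.505 of the counting noise in EtOH and 0.516 in HgCl2 over all transcripts, and 0.460 and 0.160 over the copies. The study describes its libraries as independent biological replicates, but with columns this close each group was counted as 1 sample, no test across the conditions was made, and intervals cover counting error only. Where the groups are said below not to overlap, this describes the values and is not evidence from replicates. The mitochondrial genome held 24.8% of all counts in the EtOH columns and 17.9% in the HgCl2 columns. In bulk RNA, fewer cells of a type and less RNA per cell cannot be told apart. The line's markers VIM (501 to 628 counts) and KRT18 (18 to 31 counts) were present and the leukocyte gene PTPRC was at 0, while KRT8 had 53 and 58 counts in EtOH and 4 and 4 in HgCl2.

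The sequences show how near the counted copies stand to their parents. They are given from the GRCh38 genome in the direction of the mitochondrial gene, with the bases that differ between copy and parent in capitals. The first pair is MTATP8P1, a copy on chromosome 1 with 5 differing bases over its whole length of 207 bases (chr1:633535-633741, + strand), and MT-ATP8 (chrM:8366-8572, + strand). It was chosen as the copy in its run that holds no 75-base stretch, the length of the study's reads, in common with the mitochondrial genome. The next pair is the first 150 bases of MTCO3P12 (chr1:634376-634525, + strand) with the aligned bases of MT-CO3 (chrM:9207-9356, + strand), which differ at 3 bases, shown because this copy changed most against its parent among the chromosome 1 copies with more than 100 counts.
MTATP8P1: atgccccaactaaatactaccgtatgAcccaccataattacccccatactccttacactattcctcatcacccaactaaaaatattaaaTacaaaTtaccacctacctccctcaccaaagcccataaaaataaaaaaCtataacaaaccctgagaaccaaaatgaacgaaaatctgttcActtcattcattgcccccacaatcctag
MT-ATP8: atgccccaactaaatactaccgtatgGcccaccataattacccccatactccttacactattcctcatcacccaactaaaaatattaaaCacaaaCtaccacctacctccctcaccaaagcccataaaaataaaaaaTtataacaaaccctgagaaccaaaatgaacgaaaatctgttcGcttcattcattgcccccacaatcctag
MTCO3P12: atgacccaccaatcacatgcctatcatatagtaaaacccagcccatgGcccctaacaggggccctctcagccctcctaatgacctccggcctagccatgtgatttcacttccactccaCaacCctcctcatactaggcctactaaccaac
MT-CO3: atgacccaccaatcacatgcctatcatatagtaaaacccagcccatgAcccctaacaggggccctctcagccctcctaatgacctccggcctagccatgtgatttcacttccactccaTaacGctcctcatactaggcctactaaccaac

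For the cytochrome c oxidase copies, 3 further sequences bear on the counts. The longest stretch that MTCO1P12 shares base for base with MT-CO1 has 245 bases (chr1:631861-632105 and chrM:6690-6934, + strand), so it is shown once. MTCO1P40 is the copy off chromosome 1 with the most counts. Its first 150 bases (chr17:53105734-53105883, + strand) differ from MT-CO1 (chrM:6819-6968, + strand) at 9 bases, in capitals. MTCO2P12 shares a stretch of 172 bases (chr1:633169-633340, + strand) with MTCO2P2 on chromosome 18 (chr18:47853243-47853414, − strand), so these copies also resemble each other.
MTCO1P12 and MT-CO1: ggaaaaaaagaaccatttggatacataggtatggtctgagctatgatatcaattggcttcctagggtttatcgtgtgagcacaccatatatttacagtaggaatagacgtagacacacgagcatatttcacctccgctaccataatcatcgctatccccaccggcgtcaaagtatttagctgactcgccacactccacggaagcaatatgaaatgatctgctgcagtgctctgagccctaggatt
MTCO1P40: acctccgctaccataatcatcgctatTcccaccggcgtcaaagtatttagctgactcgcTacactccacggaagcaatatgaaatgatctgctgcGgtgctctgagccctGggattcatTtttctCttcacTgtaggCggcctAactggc
MT-CO1: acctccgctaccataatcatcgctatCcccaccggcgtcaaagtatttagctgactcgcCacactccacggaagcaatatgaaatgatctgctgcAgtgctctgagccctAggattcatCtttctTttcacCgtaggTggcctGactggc
MTCO2P12 and MTCO2P2: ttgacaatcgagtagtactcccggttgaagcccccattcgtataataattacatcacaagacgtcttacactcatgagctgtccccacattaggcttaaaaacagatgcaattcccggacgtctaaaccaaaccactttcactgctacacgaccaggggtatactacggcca

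Nearly all counts of the copies came from 1 place. A run of 7 unprocessed pseudogenes on the + strand of chromosome 1 (chr1:629062-634922, 5861 bases) follows the gene order of the mitochondrial genome from MT-ND1 to MT-CO3 and held 99.5% to 99.7% of the copies' counts in every column. The run aligned from its base 20 to its end with chrM:3911-9753 at 98.5% identity, with 83 mismatched and 3 gapped bases. Of its 5787 windows of 75 bases, 1968 (34.0%) occur unchanged in the mitochondrial genome, and the longest identical stretch has 279 bases. All 7 copies overlap the pseudogene ENSG00000230021 on the opposite strand, exonic over MTCO1P12 and MTCO2P12 and intronic elsewhere. That pseudogene had 3, 1, 0 and 1 counts in EtOH 1, EtOH 2, HgCl2 1 and HgCl2 2. MTCO1P12 also overlaps a microRNA gene, ENSG00000278791, on the opposite strand, and MTATP6P1 shares 46 bases with MTATP8P1 and 1 base with MTCO3P12. The study calls its RNA-seq directional, but the kit it names does not mark strand, so whether counts of opposite strands were kept apart is not known.

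The copies as a whole took 109122 and 109041 counts in EtOH 1 and 2, against 66991 and 66602 in HgCl2 1 and 2. The HgCl2 columns were lower, and the groups did not overlap. This was 2.16% of all counts in each EtOH column and 1.42% and 1.41% in the HgCl2 columns. The summed counts of the parents were lower too, so each copy was also set against its own parent within a column, a measure that does not depend on how columns are scaled. The copies' summed counts were 10.6% of their parents' counts in EtOH and 10.04% in HgCl2, a log2 change of -0.08 (95% interval -0.10 to -0.07). MTCO1P12 holds most of this sum. Without it, but with MT-CO1 kept among the parents, the share was 2.36% in EtOH and 2.72% in HgCl2. This was a log2 change of 0.20 (0.17 to 0.23), so this 1 gene sets the sign of the pooled share. Both shares pool parents that changed unequally, from 0.37 (MT-ATP8) to -1.08 (MT-CYB) on the log2 scale. They do not show what each copy did against its own parent, which is given below for the named copies.

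MTCO1P12 copies MT-CO1, which encodes the catalytic core subunit of cytochrome c oxidase (complex IV). It had 84909 and 84726 counts in EtOH and 48871 and 48545 in HgCl2. Both HgCl2 columns were lower, and the groups did not overlap. On the log2 scale of the edgeR fit, which normalises library composition by TMM, it changed by -0.66 (95% counting interval -0.67 to -0.64), and MT-CO1 changed by -0.51. The copy's counts were 22.5% of those of MT-CO1 in EtOH 1 and EtOH 2, against 20.5% and 20.3% in HgCl2 1 and HgCl2 2. The ratio of the HgCl2 to the EtOH share was 0.906 (0.896 to 0.916). The copy spans the whole parent at 98.6% identity, and 538 of its 1469 windows of 75 bases occur in the mitochondrial genome. MTCO1P12 was the copy with the most counts in every column.

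MTCO2P12 copies MT-CO2, which encodes the subunit that takes electrons from cytochrome c. It had 1477 and 1475 counts in EtOH and 895 and 916 in HgCl2, lower in both HgCl2 columns. The log2 change was -0.56 (-0.68 to -0.44) beside -0.72 for MT-CO2. As a share of its parent the copy moved the other way, from 1.72% in EtOH to 1.92% in HgCl2, a ratio of 1.12 (1.03 to 1.21). Only 64 of its 608 windows of 75 bases occur in the mitochondrial genome, and 98 occur elsewhere in the nuclear genome, a number equal to that of the windows it shares with MTCO2P2.

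MTCO3P12 copies the first part of MT-CO3, the gene of another core subunit of cytochrome c oxidase, over 69.8% of its length. It had 3207 and 3242 counts in EtOH and 3670 and 3663 in HgCl2. Here the HgCl2 columns were the higher ones, although their totals were smaller, and the groups did not overlap. The log2 change was 0.33 (0.26 to 0.40), while MT-CO3 changed by -0.48. The share of the parent's counts was 5.83% and 5.89% in EtOH and 10.2% and 10.3% in HgCl2, a ratio of 1.75 (1.67 to 1.84). Of its 473 windows of 75 bases, 104 occur in the mitochondrial genome.

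The complex I copies of the run are MTND1P23 and MTND2P28. Their parents encode membrane subunits of the complex that takes electrons from NADH. MTND2P28 had 12162 and 12120 counts in EtOH and 7617 and 7541 in HgCl2. These were lower in both HgCl2 columns, with a log2 change of -0.54 (-0.58 to -0.49) beside -0.35 for MT-ND2. The share of the parent's counts went from 19.0% to 16.7%, a ratio of 0.877 (0.852 to 0.902). MTND1P23, which covers 36.8% of MT-ND1, had 2438 and 2443 counts in EtOH and 1786 and 1803 in HgCl2. Its HgCl2 columns were lower as well, with a log2 change of -0.30 (-0.39 to -0.21), whereas MT-ND1 was at 0.02. The share of the parent's counts went from 8.68% to 6.93%, a ratio of 0.799 (0.751 to 0.849). Per length, the deposited FPKM (fragments scaled to transcript length and library size) of this short copy was 22.3% of that of MT-ND1 in EtOH and 17.8% in HgCl2.

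The ATP synthase copies are MTATP6P1 and MTATP8P1, whose parents encode membrane subunits of the enzyme that makes ATP. MTATP6P1 had 4572 and 4620 counts in EtOH and 3825 and 3797 in HgCl2. The raw counts were lower in both HgCl2 columns, but the log2 change of -0.13 (-0.19 to -0.06) was small enough to turn with the scaling, to 0.05 with limma on log2(FPKM + 1) and to 0.01 with no filter on low values. Against MT-ATP6, which changed by -0.22, its share went from 6.38% to 6.82%, a ratio of 1.07 (1.02 to 1.12). MTATP8P1 had 16 and 18 counts in EtOH and 28 and 28 in HgCl2. These were higher in HgCl2, but with so few counts the log2 change of 0.86 had an interval of -0.06 to 1.82. Its share of the counts of MT-ATP8 was 0.102% in EtOH and 0.144% in HgCl2, with a ratio of 1.41 (0.746 to 2.75), so a difference was not detectable at this depth. MT-ATP8 itself changed by 0.37.

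**Figure D1:**
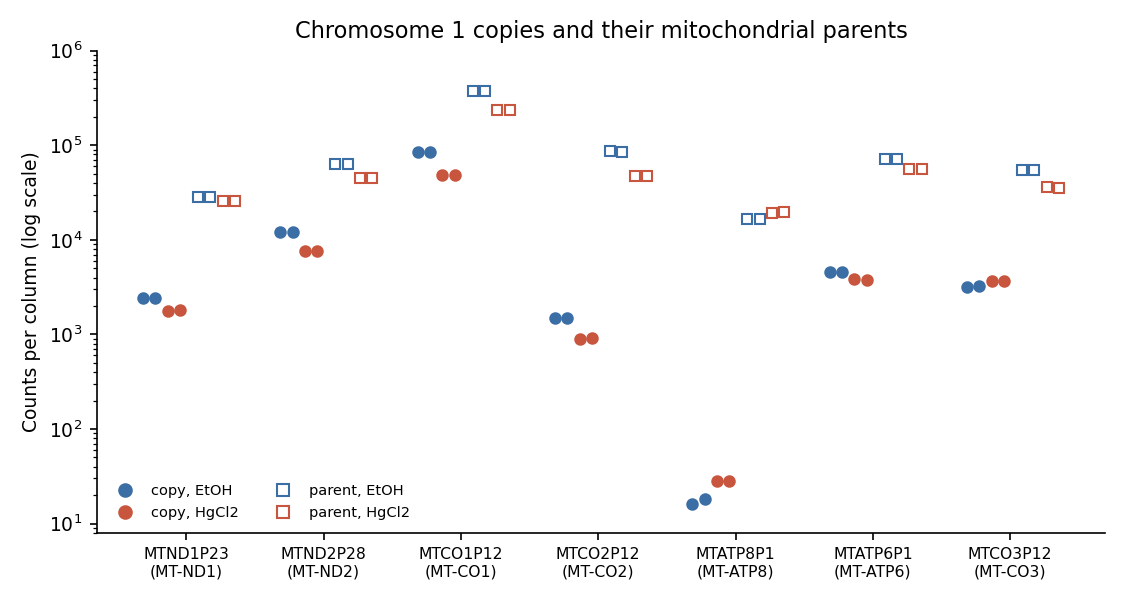
Counts per column, on a log scale, of the 7 copies on chromosome 1 (filled circles) and of their mitochondrial parents (open squares), in the EtOH (blue) and HgCl2 (red) columns. MTCO1P12 lies between 48545 and 84909 counts and MTATP8P1 between 16 and 28. MTCO3P12 is higher in HgCl2 while MT-CO3 is lower.

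The share of the parent's counts thus differed widely within the run. By raw counts, which do not allow for how much of the parent a copy covers, the order in EtOH was MTCO1P12 (22.5%), MTND2P28 (19.0%), MTND1P23 (8.68%), MTATP6P1 (6.38%), MTCO3P12 (5.86%), MTCO2P12 (1.72%) and MTATP8P1 (0.102%). The exact Poisson intervals of neighbours in this order did not overlap. In HgCl2, MTCO3P12 (10.3%) came ahead of MTND1P23 (6.93%) and MTATP6P1 (6.82%), whose intervals of 6.62% to 7.26% and 6.61% to 7.04% overlapped. The other places were as in EtOH. Per length, as FPKM in percent of the parent's FPKM, the order was MTCO1P12 (22.5% in EtOH and 20.4% in HgCl2), MTND1P23 (22.3% and 17.8%), MTND2P28 (19.0% and 16.6%), MTCO3P12 (8.40% and 14.7%) and MTATP6P1 (6.38% and 6.82%), the same in both groups.

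Relative to their parents, the copies at the start and at the end of the run moved in opposite directions. The 3 copies nearest its first base (MTND1P23, MTND2P28 and MTCO1P12) took a smaller share of their parents' counts in HgCl2, with ratios of 0.799, 0.877 and 0.906. The next 4 (MTCO2P12, MTATP8P1, MTATP6P1 and MTCO3P12) had ratios of 1.12, 1.41, 1.07 and 1.75, of which only that of MTATP8P1 had an interval that held 1. Leaving out any 1 column turned none of these 7 directions. Because the columns of a group were closer than counting noise, leaving 1 out could hardly turn a direction and does not back the split. This split was seen after the values were known and has no replicate check.

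The copies also differed in how much of their parent's sequence they hold unchanged. MTCO1P12 holds 36.6% of the 75-base windows of MT-CO1, MTND2P28 34.4% of those of MT-ND2 and MTATP6P1 28.0% of those of MT-ATP6. MTND1P23 holds 16.4%, MTCO3P12 14.6%, MTCO2P12 10.5% and MTATP8P1 0%. The shares of counts in EtOH followed this order except that MTATP6P1 came after MTND1P23, and in HgCl2 MTCO3P12 also came ahead of both. Over these 7 copies, Spearman's rho between the windows held and the share of the parent's counts was 0.96 in EtOH and 0.86 in HgCl2. With windows of 100 bases rho was the same, and with windows of 50 bases it was 0.71 in both groups. The 7 points share 1 locus and the same libraries, and rho is given as a description.

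**Figure D2:**
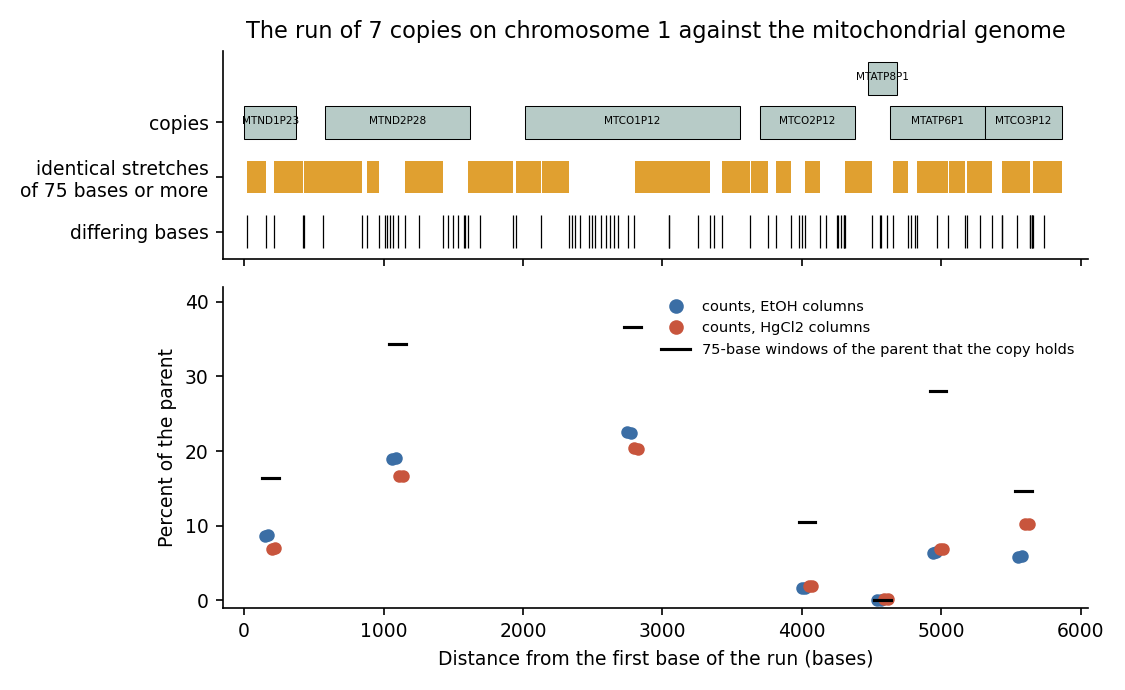
The upper panel maps the 7 copies by distance in bases from the first base of the run, with the stretches of at least 75 bases identical to the mitochondrial genome (orange) and each differing base (ticks). The lower panel gives each copy's counts as a percent of its parent's counts in the EtOH (blue) and HgCl2 (red) columns, with the percent of the parent's 75-base windows that the copy holds (black bars). MTCO1P12 and MTND2P28 are highest in all 3, and HgCl2 lies below EtOH for the 3 copies on the left.

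Across all 404 copies, those with counts stood nearer to the mitochondrial genome in sequence. An alignment was found for 391 copies, and for 390 the best match overlapped the gene the symbol names. The 45 counted copies had a median identity of 86.0% (65.1% to 99.2%), and the copies at 0 had a median of 74.3% (highest 93.5%). Of the 21 copies with at least 90% identity, 19 had counts, and of the 370 aligned copies under 90%, 26 had counts. All 11 copies with at least 95% identity were counted. The 26 counted copies under 90% identity summed to a mean of 42.5 counts in EtOH and 37 in HgCl2, against 109039 and 66759.5 for the 19 above it. Only 8 copies hold a 75-base window that occurs in the mitochondrial genome, and all 8 had counts: 6 in the chromosome 1 run, plus MTND5P11 and MTND6P4. The counted copies and those at 0 were of like length, with medians of 682 and 667 bases, and 16 of the 45 lay inside protein-coding genes against 72 of the 359.

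**Figure D3:**
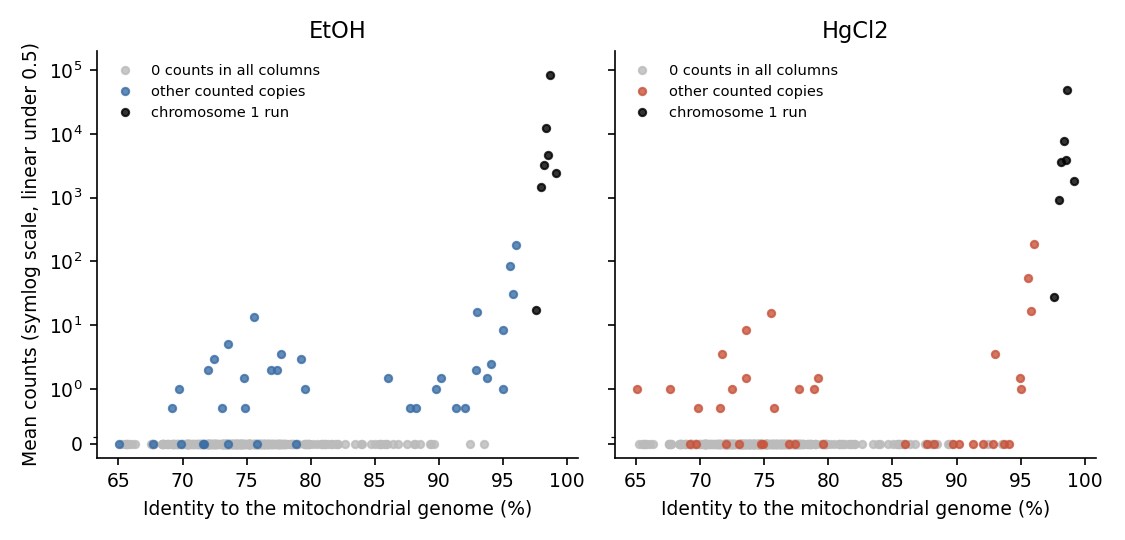
Mean counts in EtOH (left) and HgCl2 (right), on a symmetric log scale that is linear under 0.5, against percent identity to the mitochondrial genome for the 391 copies with an alignment. The chromosome 1 run (black) lies at 97.6% to 99.2% identity, other counted copies are coloured, and copies at 0 in all columns (grey) lie mostly under 80%. Coloured points at 0 were counted in the other group.

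Off chromosome 1, 38 copies together had 341 and 397 counts in EtOH and 299 and 309 in HgCl2. The parents' summed counts were lower by a larger factor, and the summed share of the parents' counts went from 0.0370% to 0.0475%, a log2 change of 0.36 (0.14 to 0.59). MTCO1P40 decides this direction: without it, a choice made once the values were known, the remaining 37 copies went from 0.0192% to 0.0177% of the same parents' counts (log2 change -0.11, -0.46 to 0.23). Only 3 of the 38 reached a mean of 30 counts in a group. Of all 45 counted copies, 31 had 5 counts or fewer in every column and 24 had 2 or fewer. Counts above 0 were found in both groups for 18 copies, only in EtOH for 19 and only in HgCl2 for 8, the largest of these last having 4 and 3 counts. The same count was not made over all transcripts. With no filter on low values, 23 of the 45 copies were at least 2-fold lower in HgCl2 and 9 higher. Of all 39729 transcripts with any count, 18914 were lower and 8241 higher, so a lean to EtOH is not particular to the copies.

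MTCO1P40 lies on chromosome 17 (chr17:53105734-53106358, + strand) outside other annotated genes. It had 165 and 190 counts in EtOH and 191 and 190 in HgCl2. The groups met at 190 counts, and the log2 change of 0.25 had an interval of -0.06 to 0.55. Its share of the counts of MT-CO1 went from 0.047% to 0.080%, a ratio of 1.69 (1.37 to 2.09). At 96.0% identity to its parent, none of its 551 windows of 75 bases occurs in the mitochondrial genome, but 53 occur elsewhere in the nuclear genome.

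MTCO2P2 lies on chromosome 18 (chr18:47853233-47853457, − strand) in an intron of SMAD2, which encodes a signal transducer of the TGF-beta pathway, on the same strand. It had 78 and 91 counts in EtOH and 49 and 59 in HgCl2, without overlap. The log2 change was -0.50 (-1.02 to 0.01), and the summed transcripts of SMAD2 had 148 and 145 counts in EtOH and 95 and 104 in HgCl2. The share of the counts of MT-CO2 was 0.098% in EtOH and 0.114% in HgCl2, a ratio of 1.16 (0.811 to 1.66). None of its 151 windows occurs in the mitochondrial genome, but 98 occur in MTCO2P12, and counts of these copies cannot be told apart there. The part of the host gene in the change was not tested.

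MTND4P12 lies on chromosome 5 (chr5:134926660-134928036, − strand), in an intron of PCBD2 on the opposite strand, and copies nearly the whole of MT-ND4, another membrane subunit gene of complex I. It had 27 and 34 counts in EtOH and 17 and 16 in HgCl2, lower in both HgCl2 columns. The log2 change was -0.74 (-1.70 to 0.17) beside -0.43 for MT-ND4, and none of its 1303 windows occurs in the mitochondrial genome. It belongs to a run of 6 copies (chr5:134923303-134928527), 4 of them counted, that summed to a mean of 56 counts in EtOH and 22.5 in HgCl2. PCBD2, which encodes a cofactor-recycling enzyme, had 98 and 108 counts in EtOH and 77 and 70 in HgCl2, and its part in these counts was not tested.

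A run on chromosome 9 (chr9:5091093-5110762) held as many counted copies as that on chromosome 1, 7 of its 8, but few counts. It lies in introns of JAK2, which encodes a cytokine receptor kinase, on the same strand. MTND4P14 had 5 and 5 counts in EtOH and 10 and 7 in HgCl2, higher in HgCl2, with a log2 change of 0.89 and no detectable difference at this depth. The fit took transcripts with a mean FPKM above 1 in a group, and MTND4P14 entered through HgCl2 alone (1.43, against 0.67 in EtOH). Its higher value in HgCl2 was therefore favoured by the filter. MTATP6P11 had 2, 4, 1 and 1 counts, and MTCO1P11 (2, 2, 0 and 0), MTCO3P11 (1, 3, 0 and 0), MTCO2P11 (1, 0, 0 and 0), MTND5P14 (0, 0, 1 and 0) and MTND6P5 (0, 0, 0 and 1) were at or under 3 counts. The run summed to a mean of 12.5 counts in EtOH and 10.5 in HgCl2. Its counted copies stood at 71.6% to 77.4% identity to the mitochondrial genome, and none of their 50-base windows occurs there. The transcripts of JAK2 had 363 and 381 counts in EtOH and 296 and 312 in HgCl2. By contrast, 3 runs of 11 copies each, 2 on chromosome 2 and 1 on chromosome 4, had 0 counts in all columns.

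Of the 45 copies, 18 had a mean FPKM above 1 in a group and entered the fit. A copy that entered only through its higher group was bound to differ, so the counts that follow describe these libraries. None of the 18 was at least 2-fold higher in HgCl2, and 4 (22.2%) were at least 2-fold lower. Over all 17547 transcripts fitted, 19.2% were higher and 34.1% lower past 2-fold, so that 36.0% of such calls were higher. That percentage was 46.7% with limma on FPKM, and also where every column had to hold at least 10 counts. The 4 lower copies, named here after their values were seen, were MTND5P11 (13, 19, 2 and 5 counts), MTND6P4 (11, 6, 1 and 1), MTND3P22 (4, 3, 1 and 1) and MTATP8P2 (1, 4, 0 and 0). Each had fewer than 20 counts in every column and a mean FPKM above 1 in EtOH alone. Their lower values in HgCl2 were therefore favoured by the filter, and the folds and intervals that follow are no evidence of a change. MTND5P11 had a log2 change of -2.01 (-4.25 to -0.34) beside -1.03 for MT-ND5. For MTND6P4 the log2 ratio of the mean counts was -2.94 with an interval of -8.41 to -0.07, and for MTND3P22 it was -1.66 with an interval of -7.33 to 1.80. MTATP8P2 was under 3 counts in both group means, which gives no fold. Of the 9 copies with a mean of at least 30 counts in a group, none passed 2-fold in either direction, while 21.3% of all transcripts with such a mean were higher and 13.2% lower. The median log2 change was -0.52 over the 18 copies, -0.43 over the 15 mitochondrial parents and -0.21 over all transcripts fitted. Over those with a mean of at least 30 counts in a group it was -0.50 for the 9 copies and 0.23 for all transcripts.

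**Figure D4:**
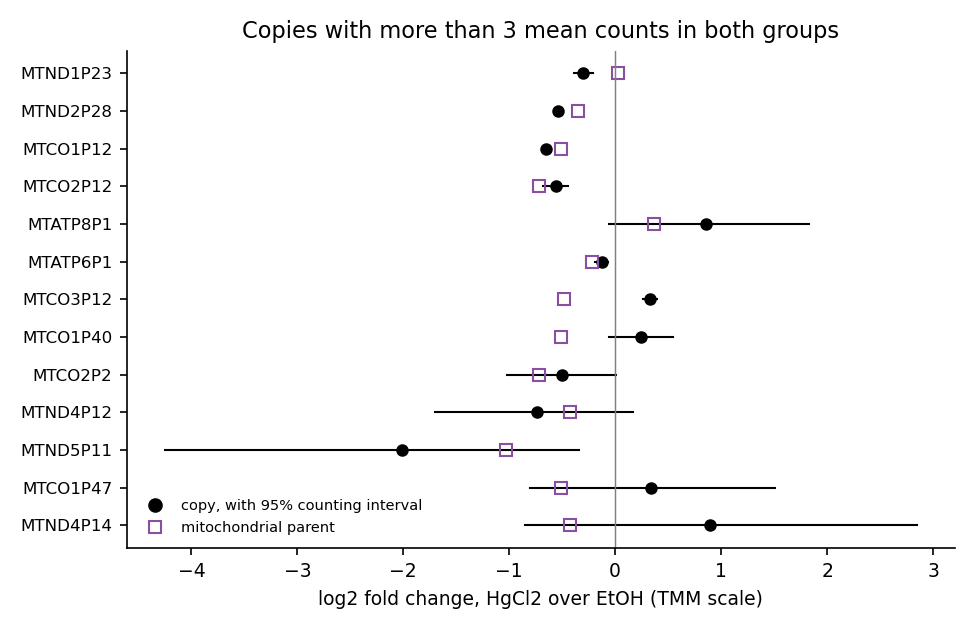
Log2 fold change, HgCl2 over EtOH, of the 13 fitted copies with more than 3 mean counts in both groups (circles, with 95% counting intervals) and of their mitochondrial parents (open squares). MTCO3P12 lies at 0.33 with its parent at -0.48, and MTND5P11 at -2.01 has an interval from -4.25 to -0.34. MTND5P11 entered the fit through EtOH alone, so its lower value in HgCl2 was favoured by the filter. MTND4P14 entered through HgCl2 alone, so its higher value there was favoured in the same way.

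By the complex their parents belong to, 21 of 217 listed copies of complex I genes, 19 of 157 of complex III and IV genes and 5 of 30 of ATP synthase genes had counts. MT-CO1 had the most listed copies (48) and the most counted ones (9). The 42 copies of MT-CYB, the cytochrome b gene of complex III, gave 2 with counts, at a mean of 3 counts in EtOH and 0 in HgCl2. Summed within a complex, the share of the parents' counts was 3.79% in EtOH and 3.70% in HgCl2 for complex I (log2 change -0.03, -0.07 to 0.00), 16.3% and 16.0% for complexes III and IV (-0.03, -0.05 to -0.02) and 5.21% and 5.10% for ATP synthase (-0.03, -0.09 to 0.03). These sums pool parents that changed unequally, from 0.02 (MT-ND1) to -1.03 (MT-ND5) on the log2 scale within complex I, so they do not show what each copy did against its own parent. MTND2P28 and MTND1P23, with nearly all counts of the complex I copies, had ratios to their parents of 0.877 and 0.799. In complex IV, MTCO1P12 (0.906) lay under 1 and MTCO2P12 (1.12) and MTCO3P12 (1.75) above it, while MTATP6P1, with nearly all counts of the ATP synthase copies, was at 1.07.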

How the data were processed

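PolyA RNA of H1299 cells was sequenced as 75-base paired reads, with 2 columns per group in tables of the whole series. The authors' deposited counts per transcript of Ensembl 98 came from Rsubread 2.0.1, after adapter trimming (Trim Galore 0.6.5) and GRCh38 alignment (STAR 2.5.4b). Their counting options are not given in the sources used here. The authors made the deposited FPKM values with DESeq2 1.26.0. Columns were matched to samples by their names. A marker that the rule covers is not reported here.

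Copies and their positions came from GENCODE 44 on GRCh38, a later release, in which 223558 of 227368 identifiers were found. The members, the lists and the named genes were chosen with earlier results of these data known. Named were copies with a mean of at least 30 counts in a group, the runs with most counted copies (within 10 kb of one another, 2 runs with 7 each), and their parents. Fold changes were fitted in R 4.3.3 by edgeR 4.0.16 (glmQLFit, TMM), on the 17547 transcripts whose FPKM averaged above 1 for EtOH or HgCl2. Because columns within a group were closer than counting noise allows for separate libraries, no p-values were used, and a transcript was called at a log2 fold change of at least 1 in size. Intervals are 95% Clopper-Pearson intervals from mean counts, with the parent's total taken as known in ratios, or exact Poisson intervals where named. Where a group's mean was 1 to 3 counts, the ratio of mean counts is given with its interval.

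Exonic bases of each copy were aligned to the mitochondrial genome with BLAST 2.17.0 (e-value 1e-05). Windows of 75 bases, the read length, were sought on both strands of the primary assembly (194 sequences), and windows of 50 and 100 bases were added after seeing the data. A window stands for 1 read alone, and the other read of its pair was not taken into account. Fits and alignments were tested on simulated data. Alternatives used DESeq2 1.42.0, limma 3.58.1 on log2(FPKM + 1), other filters and scalings, sums per gene, the replicate number as a block, and each column left out.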

Additional observations from a re-analysis of the deposited data

How the results depend on the processing

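Each group was counted as 1 sample, so nothing here measures the spread between cultures, and copies under about 30 counts are limited by counting error. The handling of reads that match a copy and its parent is unknown and could move every value of the chromosome 1 run. The filter mattered most for counts past 2-fold. For all transcripts there were 3372 higher and 5987 lower, with filterByExpr 3259 lower, with at least 10 counts in every column 963 higher and 1101 lower, with no filter 8241 and 18914, with limma 3357 lower, and summed per gene 1746 and 3559. Of the copies, 4 were lower, against 1 with filterByExpr, 0 with at least 10 counts, 23 (and 9 higher) with no filter and 2 with limma. Leaving out 1 column gave 0 to 1 higher (MTND4LP30 without HgCl2 replicate 1, MTND4P14 without HgCl2 replicate 2) and 3 to 6 lower. The 6 came without EtOH replicate 1. Both higher copies had a mean FPKM above 1 in HgCl2 alone, so the filter favoured those calls. The copies' median log2 change of -0.52 was -1.21 with no filter and -0.58 to -0.34 without 1 column. Fewer or more transcripts enter under another filter, and the cause was otherwise not tested. Against the main scaling the median of all transcripts moved by 0.20 with filterByExpr, 0.22 with at least 10 counts, -0.61 with no filter and 0.18 with limma. The log2 change of the summed share of the parents' counts (-0.08) was -0.11 from FPKM, -0.13 for chromosome 1 alone, 0.36 off chromosome 1, 0.20 without MTCO1P12 and -0.14 against all mitochondrial transcripts, and lay between -0.09 and -0.08 without 1 column. Among the 11 copies followed by name, only MTATP6P1 changed the sign of its log2 change, under 2 settings. The size moved more: MTCO1P12 ran from -0.83 (at least 10 counts in every column) to -0.48 (limma), and MTCO3P12 from 0.15 to 0.51 under the same settings. For the chromosome 1 copies other than MTATP8P1 these ranges went past the counting intervals, which do not cover scaling. For MTATP8P1 and the copies off chromosome 1 they lay inside. Copies with a window in the mitochondrial genome numbered 8, 16 with 50-base windows and 6 with 100-base windows. The replicate numbers were not shown to pair the columns (correlation of same-numbered deviations 0.02, 2 pairs), and the replicate block left 3372 higher, 5987 lower and 4 lower copies.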
